A study of Homo sapiens with 4 samples.

Results

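The genes of sterol and fatty acid synthesis were followed in U2OS cells, a human osteosarcoma line, under anti-MN1 sdAb and under a control sdAb. They comprise 34 named genes taken from the deposited count table through their Ensembl identifiers, of 58676 genes in that table. The list holds 21 genes of the cholesterol pathway, the main territory of the transcription factor SREBP2. The other 13 are mostly genes of fatty acid synthesis, desaturation and sterol efflux, the main territory of SREBP1 and the liver X receptors (LXR). CPT1A, a gene of fatty acid oxidation, is counted with them. All 34 were matched to 1 identifier each and all 34 passed the filter on low counts, which 17524 genes passed.

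An sdAb is a single-domain antibody, a small binding protein made of 1 antibody domain, and MN1 is a transcriptional co-regulator in the nucleus. Some cells received the anti-MN1 sdAb (2 libraries, labelled M11) and others a control sdAb (2 libraries). Both were the same line in the same serum-containing medium. The labels give no dose and no duration, and they do not say whether a group's libraries are separate cultures. A p-value here is set by how far 2 libraries of a group differ, a spread that the test borrows largely from all tested genes. It is thus not the precision of a single gene's replicates. The difference between libraries may be technical only.

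Cells make cholesterol from acetyl-CoA through the mevalonate pathway to squalene, and from squalene through lanosterol. SREBP2 and SREBP1, encoded by SREBF2 and SREBF1, are made as precursors in the endoplasmic reticulum membrane, where SCAP escorts them and the INSIG proteins hold the complex back when sterols are plentiful. When sterols fall, proteases in the Golgi release the active factors, which switch on sterol and fatty acid genes. LXR works in the other direction: oxidised sterols activate it, and it raises SREBF1 and the efflux pumps ABCA1 and ABCG1. Serum lipoproteins supply sterol to cultured cells and bear on both systems. The values here are transcript levels, and cleavage of the SREBP proteins was not measured.

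The total count was 16075169 and 15970324 in the anti-MN1 libraries and 15740268 and 16816893 in the control libraries. Replicate libraries were alike, with Pearson's r of log2 CPM across tested genes, which are not independent replicates, of 0.99 between the anti-MN1 libraries and 0.992 between the controls. Mitochondrial genes held 3.40% and 3.49% of counts in the anti-MN1 libraries, against 4.45% and 4.31% in the controls. MN1 itself was at 41.8 and 43.7 CPM (counts scaled to a common library size) under anti-MN1 sdAb and at 52.6 and 52.5 CPM in controls. The sdAb targets MN1 protein, so this transcript says nothing on whether the labels are right. The 6 mesenchymal markers summed to 1067 and 1075 CPM under anti-MN1 sdAb and to 1391 and 1364 CPM in controls. The sum covers changes in both directions: COL1A1 (159 and 165 CPM against 501 and 484 CPM), SPARC (113 and 115 CPM against 253 and 260 CPM), RUNX2 and THY1 fell by 0.82 to 1.60 on the log2 scale, anti-MN1 libraries against controls. CD44 had 408 and 404 CPM under anti-MN1 sdAb and 189 and 184 CPM in controls and rose by 1.12, and VIM, at 336 to 356 CPM, did not pass. Of cells in which lipid genes are prominent, 7 of 8 hepatocyte markers, 6 of 7 adipocyte markers and 6 of 7 macrophage and blood markers stayed under 1 CPM in every library. TTR, CYP7A1, ADIPOQ, LEP, CIDEC, CD68 and HBB were at 0, but 81.7% of CD68 exon bases lie in another gene on the same strand, so its reads may be left uncounted. The exceptions were SERPINA1, LPL and MARCO, and the list sums were 59.4 and 56.6 CPM against 62.1 and 58.7 CPM (hepatocyte), 13.2 and 15.6 CPM against 17.9 and 15.7 CPM (adipocyte), and 4.92 and 5.81 CPM against 3.91 and 4.52 CPM (macrophage and blood), anti-MN1 libraries against controls. The part of the mitochondrial share and of the mesenchymal markers in the results was not tested.

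Under anti-MN1 sdAb the lipid genes did not move as a block. The cholesterol genes split, with IDI1 and the feedback gene INSIG1 higher and MVD, SC5D and SREBF2 lower. In the fatty acid and LXR group SREBF1, the desaturase FADS2 and the pumps ABCA1 and ABCG1 were lower and CPT1A, the entry step of mitochondrial fatty acid oxidation, was higher. FADS2, ABCA1, ABCG1 and CPT1A changed by more than any cholesterol gene, while SREBF1 (-0.69 on the log2 scale) and IDI1 (0.70) changed by about as much as each other. FADS2 was 2.46-fold lower and CPT1A 2.07-fold higher, while the members with the highest levels per exon length, FASN, SCD and ACLY, moved by 1.16-fold or less.

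Of the 34 members, 12 rose and 14 fell at a Benjamini-Hochberg adjusted p under 0.05 in edgeR's quasi-likelihood test over all tested genes, and 8 passed in neither direction. Among all tested genes 23.2% rose and 20.9% fell, so a call by itself is common in this contrast. The members are also abundant, and abundant genes are called higher more often, though not lower. Among the 27 members with a mean of at least 20 CPM, 44.4% rose and 37% fell, beside 39.1% and 19.2% of the 8232 genes of that abundance. The groups did not overlap for 32 of 34 members, meaning that both anti-MN1 libraries lay above or below both controls. The same held for 70.7% of tested genes. At a mean of at least 20 CPM it held for 25 of 27 members and for 6522 of 8232 genes. Library scaling bears on the split. With upper-quartile factors 6 members rose and 18 fell, and 38.2% of all calls were higher in place of 52.7%.

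Few members changed by much, and over the whole list the share at each size cut was near that of all tested genes. Of the 34 members, 6 were both called and changed by at least 1.5-fold. IDI1 and CPT1A were higher by that much, beside 5.24% of tested genes. SREBF1, FADS2, ABCA1 and ABCG1 were lower by that much, beside 11.5% of tested genes. These 4 are all among the 13 genes of the fatty acid group, and 0 of the 21 cholesterol genes fell by that much. At a mean of at least 20 CPM, 2 of 27 members were higher and 2 lower by that much. The counts among the 8232 genes of that abundance were 381 and 284. In edgeR's test against a change of 1.5-fold, CPT1A was higher (adjusted p = 1.11e-07), beside 1.96% of tested genes. FADS2 (adjusted p = 5.05e-13) and ABCG1 (adjusted p = 0.00104) were lower in the same edgeR test, beside 4.27% of tested genes.

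**Figure D1:**
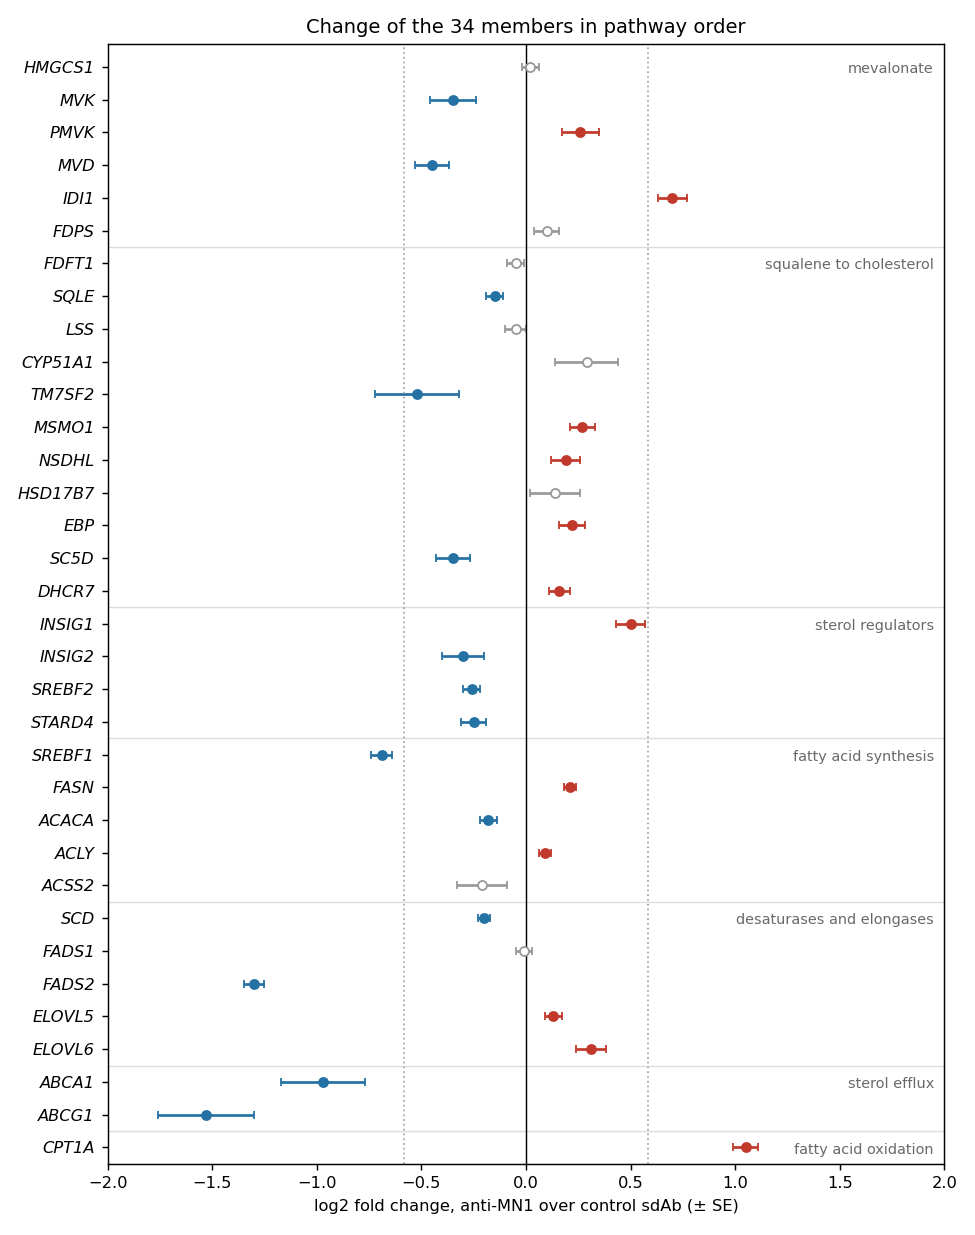
Log2 fold change of each of the 34 genes, anti-MN1 over control sdAb (horizontal axis, with standard errors as bars), in pathway order down the page. Filled red points rose, filled blue points fell, open points did not pass, and dotted lines mark a 1.5-fold change. The cholesterol genes lie between -0.52 and 0.70, and the points farthest from 0 are ABCG1 at -1.53, FADS2 at -1.30 and CPT1A at 1.05.

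Of the regulators of the pathway INSIG1 rose, while SREBF1 fell and SREBF2, INSIG2 and STARD4 fell less. The sterol regulator list, which leaves out SREBF1, had 1 gene higher (25%) and 3 lower (75%). Among all tested genes 23.2% rose and 20.9% fell. SREBF1 had 103 and 93.0 CPM under anti-MN1 sdAb, against 160 and 157 CPM in controls. Both anti-MN1 libraries were far below both controls, with no overlap. The log2 fold change was -0.69 ± 0.05 (SE), a 1.61-fold decrease (edgeR adjusted p = 6.83e-13), and 18.5% of tested genes had a larger change in either direction. In these bulk samples, fewer cells that express a gene and less of its RNA per cell cannot be told apart.

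SREBF2 had 187 and 191 CPM under anti-MN1 sdAb and 233 and 220 CPM in controls. The groups were again separate, by a smaller step of -0.26 ± 0.04 on the log2 scale (edgeR adjusted p = 3.15e-06), and 51.9% of tested genes changed more. Within a library, where scaling cancels, the ratio of SREBF1 to SREBF2 was 0.552 and 0.488 under anti-MN1 sdAb and 0.684 and 0.713 in controls. SREBF1 was thus lower relative to SREBF2 in both anti-MN1 libraries, although 2 libraries against 2 allow no exact permutation p below 0.333 for any ratio.

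INSIG1 and INSIG2 encode paired proteins that retain the SCAP and SREBP complex; INSIG1 is itself a classical SREBP target. INSIG1 had 76.9 and 69.5 CPM under anti-MN1 sdAb, against 50 and 53.2 CPM in controls. That is a log2 fold change of 0.50 ± 0.07, 1.42-fold higher, in edgeR's test (adjusted p = 2e-07). INSIG2 had 19.8 and 20 CPM under anti-MN1 sdAb, against 23.8 and 25.2 CPM in controls, a log2 fold change of -0.30 ± 0.10 (edgeR adjusted p = 0.0151). The ratio of INSIG1 to INSIG2 stood at 3.88 and 3.47 in anti-MN1 libraries and at 2.1 in both controls, 1.74 times as high. The INSIG2 call was lost without control replicate 2 (adjusted p = 0.122) and without either anti-MN1 library (0.0646 and 0.0506), while that of INSIG1 held in each. STARD4, a soluble carrier that moves sterol to the endoplasmic reticulum, fell by about as much as SREBF2, by 0.25 on the log2 scale (edgeR adjusted p = 0.000807).

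**Figure D2:**
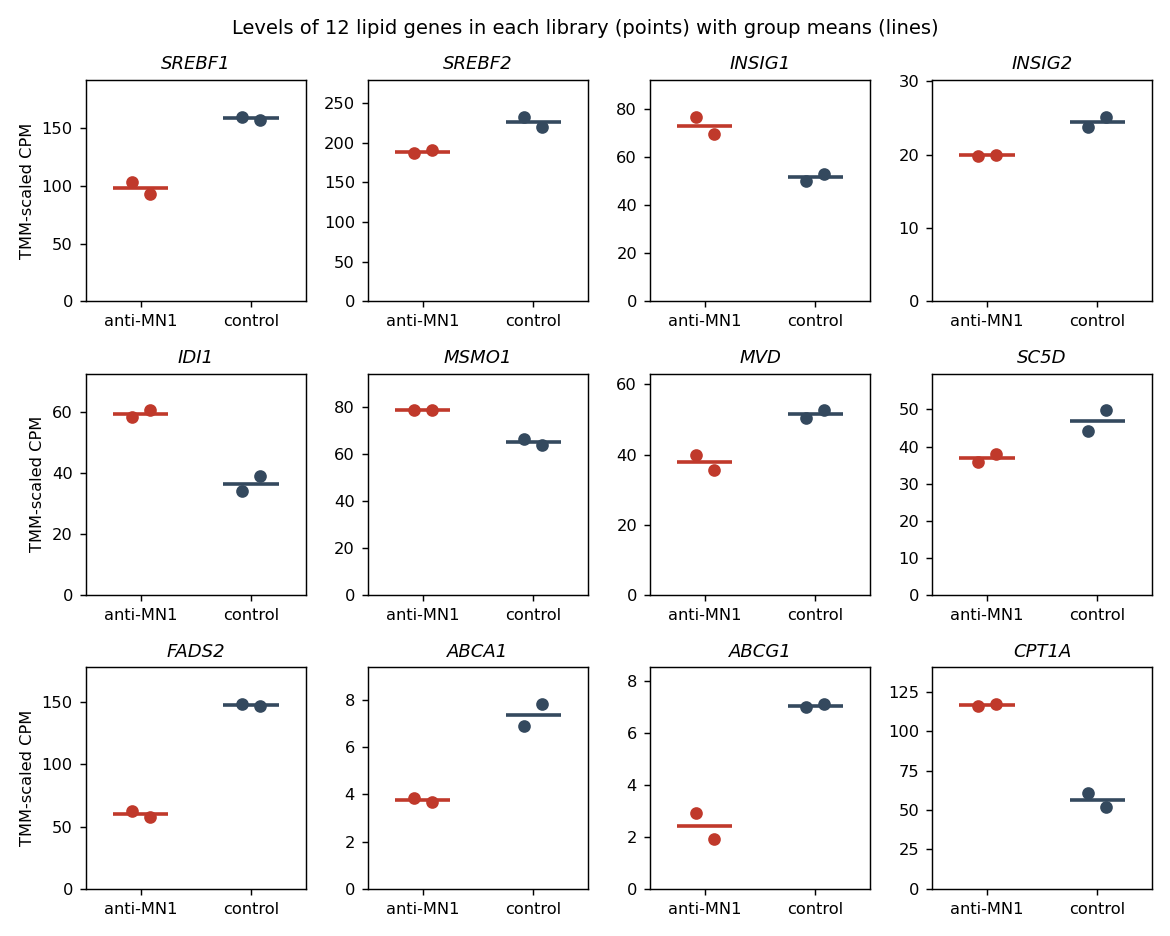
Levels of 12 genes in each library, in TMM-scaled CPM on axes that start at 0, with anti-MN1 libraries left (points) of controls and lines at the group means. SREBF1, SREBF2, INSIG2, MVD, SC5D, FADS2, ABCA1 and ABCG1 sit lower under anti-MN1 sdAb, and INSIG1, IDI1, MSMO1 and CPT1A sit higher. The groups do not overlap in any panel, but all 12 genes shown are members that passed the test. Among all tested genes 70.7% separate in the same way.

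The sequence in front of these genes was read from RefSeq promoter windows on GRCh38.p14, which matched 30 of the 34 members in 41 windows, with some members holding several. The 5 genes printed were chosen for display after their values were seen. They are a pair of regulators on the sterol side, an enzyme of the cholesterol branch, and SREBF1 and ABCA1 of the fatty acid and LXR group. The SREBF1 window lies at the 5′ end of the annotated gene, and any start further inside the gene was not searched. Each line gives the 200 bases in front of the RefSeq start, 5′ to 3′ on the gene's strand. The windows are chr22:41832905-41833104 (plus strand) for SREBF2, chr7:155297678-155297877 (plus) for INSIG1, chr4:165327469-165327668 (plus) for MSMO1, chr17:17836987-17837186 (minus) for SREBF1 and chr9:104928156-104928355 (minus) for ABCA1. Capitals mark matches, on either strand, to the sterol regulatory element core TCACNCCAC (N is any base), the NF-Y box CCAAT and the Sp1 box GGGCGG.
SREBF2: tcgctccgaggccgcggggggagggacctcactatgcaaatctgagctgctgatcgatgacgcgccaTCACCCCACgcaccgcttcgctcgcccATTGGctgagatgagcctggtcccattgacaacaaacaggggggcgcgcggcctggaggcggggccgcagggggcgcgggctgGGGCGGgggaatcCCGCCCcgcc
INSIG1: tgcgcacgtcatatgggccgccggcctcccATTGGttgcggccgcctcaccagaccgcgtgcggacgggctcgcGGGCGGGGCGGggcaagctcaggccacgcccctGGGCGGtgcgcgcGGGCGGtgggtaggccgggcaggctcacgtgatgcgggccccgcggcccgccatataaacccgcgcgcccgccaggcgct
MSMO1: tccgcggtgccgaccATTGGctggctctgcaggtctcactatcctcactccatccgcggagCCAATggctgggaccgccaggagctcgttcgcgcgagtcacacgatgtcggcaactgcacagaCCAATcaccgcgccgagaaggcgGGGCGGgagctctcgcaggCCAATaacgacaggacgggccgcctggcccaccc
SREBF1: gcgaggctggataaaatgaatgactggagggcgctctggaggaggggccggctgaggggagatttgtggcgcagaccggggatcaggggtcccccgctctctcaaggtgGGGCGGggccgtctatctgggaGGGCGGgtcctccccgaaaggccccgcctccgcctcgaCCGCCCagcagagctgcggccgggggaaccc
ABCA1: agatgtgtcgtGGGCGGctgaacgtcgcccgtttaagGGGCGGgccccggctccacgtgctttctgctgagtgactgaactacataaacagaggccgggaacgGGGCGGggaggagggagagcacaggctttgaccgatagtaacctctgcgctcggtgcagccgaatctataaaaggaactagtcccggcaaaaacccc

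The SREBF2 window held 1 match to the sterol regulatory element core, 1 NF-Y box and 2 Sp1 boxes. INSIG1 held 1 NF-Y box and 4 Sp1 boxes, of which a pair shares bases, and MSMO1 held 4 NF-Y boxes and 1 Sp1 box. SREBF1 and ABCA1 held 3 Sp1 boxes each and no NF-Y box. NF-Y and Sp1 are general promoter factors known to work beside SREBP. Over whole windows, from 250 bases before to 50 after the start, the NF-Y box was in 18 of 25 cholesterol windows (72%) and 8 of 16 fatty acid windows (50%), beside 34.6% of all 35116 promoters. The Sp1 box was in 92% and 75% of them, beside 45% of all. These are shares of windows, not of genes, and overlapping windows of a gene, as for ACLY and SC5D, can hold the same box. The exact sterol core was in 1 cholesterol window and no fatty acid window, beside 1.13% of all promoters; with 1 mismatch allowed, a search added after the exact result was seen, it was in 44%, 50% and 24.5%. The LXR repeat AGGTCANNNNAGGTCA, searched as exact letters only, was in no member's window and in 7 of all promoters. With so few matches anywhere, its absence here is not informative, and copies with changed bases are missed. The printed ABCA1 window holds tgaccgatagtaacct, which, read on the other strand, differs from the repeat by a base in each repeat unit. A match is a string of letters, not a bound site, and absence says only that the letters are not in the window. Genes on either side of the split shared these boxes.

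The enzymes of the mevalonate segment, which turns acetyl-CoA into the isoprenoid units of sterols, went in both directions. Of 6 genes, 2 rose (33.3%), 2 fell (33.3%) and 2 passed in neither direction, beside 23.2% higher and 20.9% lower among all tested genes. Their median log2 fold change was 0.06, beside 0.00 over all tested genes. HMGCS1, which makes HMG-CoA, stood at 217 and 211 CPM under anti-MN1 sdAb and 208 and 215 CPM in controls. Its groups overlapped, with a log2 fold change of 0.02 ± 0.04.

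IDI1, which interconverts the isoprenoid building blocks, had 58.4 and 60.5 CPM under anti-MN1 sdAb, against 34.1 and 39.0 CPM in controls. It was the member of the cholesterol pathway with the largest change, at 0.70 ± 0.07 on the log2 scale, 1.62-fold higher (edgeR adjusted p = 4.3e-09). The antisense gene IDI2-AS1 overlaps 14.8% of its exon bases on the other strand, and whether the counting used strand is not given in the sources used here. MVD, the enzyme just before IDI1 in the pathway, had 40.0 and 35.7 CPM under anti-MN1 sdAb, against 50.5 and 52.6 CPM in controls. It fell by 0.45 ± 0.08 on the log2 scale in edgeR's test (adjusted p = 1.42e-05), so neighbouring steps changed in opposite directions.

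MVK, mevalonate kinase, had 14.4 and 14.6 CPM under anti-MN1 sdAb and 18.7 and 18.2 CPM in controls, a log2 fold change of -0.35 ± 0.11 (edgeR adjusted p = 0.0122). The call was lost without control replicate 1 (adjusted p = 0.0822) and without anti-MN1 replicate 1 (0.053). PMVK, the next kinase, had 34 and 34.4 CPM under anti-MN1 sdAb and 25.6 and 31.4 CPM in controls. Control replicate 1 sets much of its step of 0.26: without that library the log2 fold change was 0.13 (edgeR adjusted p = 0.369), and without control replicate 2 it was 0.42. FDPS, which builds farnesyl units, had a log2 fold change of 0.10 (edgeR adjusted p = 0.177).

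From squalene to cholesterol, 4 of 11 genes rose (36.4%), 3 fell (27.3%) and 4 passed in neither direction. The shares of all tested genes were 23.2% and 20.9%. All 11 changed by less than 1.5-fold, with a median of 0.14. MSMO1, a sterol methyl oxidase, had 78.5 CPM in both anti-MN1 libraries, against 66.3 and 63.9 CPM in controls. Its log2 fold change was 0.27 ± 0.06 (edgeR adjusted p = 0.000291). EBP, the sterol isomerase, rose by 0.22, NSDHL, a decarboxylating dehydrogenase, by 0.19, and DHCR7, a terminal reductase, by 0.16. With upper-quartile factors EBP, NSDHL and DHCR7 did not pass, nor did PMVK, ACLY and ELOVL5 among the other members that rose. NSDHL was also lost without control replicate 2 (edgeR adjusted p = 0.127) and without either anti-MN1 library (0.0618 and 0.0612).

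SC5D, the sterol desaturase between EBP and DHCR7, had 35.8 and 38.0 CPM under anti-MN1 sdAb, against 44.1 and 49.7 CPM in controls. It fell by 0.35 ± 0.08 on the log2 scale in edgeR's test (adjusted p = 0.00052), in the opposite direction to both neighbours. SQLE, the squalene epoxidase, had 136 and 144 CPM under anti-MN1 sdAb and 156 CPM in both controls, a fall of 0.15 that lost its call without anti-MN1 replicate 1 (-0.11, edgeR adjusted p = 0.153). TM7SF2, a sterol reductase, was among the lowest members, with 4.16 and 5.43 CPM under anti-MN1 sdAb and 6.76 and 6.95 CPM in controls. Its fall of 0.52 ± 0.20 on the log2 scale (edgeR adjusted p = 0.0344) was lost without either control (0.101 and 0.109), and without anti-MN1 replicate 1 it shrank to -0.33 (0.27).

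FDFT1 and LSS, which make squalene and close the sterol ring, each had a log2 fold change of -0.05 and did not pass. HSD17B7, a ketoreductase, had 0.14 ± 0.12. Of its 50-base exon windows 17.3% recur in other genes, of which the copy HSD17B7P2 shares the most. CYP51A1, the lanosterol demethylase, had 10.8 and 10.1 CPM under anti-MN1 sdAb and 9.43 and 7.64 CPM in controls, with a log2 fold change of 0.29 (edgeR adjusted p = 0.124). Its level is uncertain, since 79.4% of its exon bases lie in another annotated gene on the same strand, where reads may be left uncounted.

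The sum over the cholesterol group hid this split. It was 1662 and 1659 CPM under anti-MN1 sdAb and 1661 and 1668 CPM in controls, so the groups overlapped. The median log2 fold change of the 21 genes was 0.02, with 7 higher (33.3%) and 8 lower (38.1%). The 13 genes of the fatty acid group summed to 2783 and 2714 CPM under anti-MN1 sdAb and 2854 and 2772 CPM in controls. Their median was -0.18, with 5 higher (38.5%) and 6 lower (46.2%), beside 23.2% and 20.9% of all tested genes. The ratio of the sums was 0.597 and 0.611 under anti-MN1 sdAb and 0.582 and 0.602 in controls and overlapped. The groups differ in spread: log2 fold changes ran from -0.52 to 0.70 in the cholesterol group and from -1.53 to 1.05 in the fatty acid group. The last 2 values are those of ABCG1, a scarce transcript, and of CPT1A, a gene of oxidation. Among the genes of synthesis, desaturation and elongation the range was -1.30 to 0.31.

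**Figure D3:**
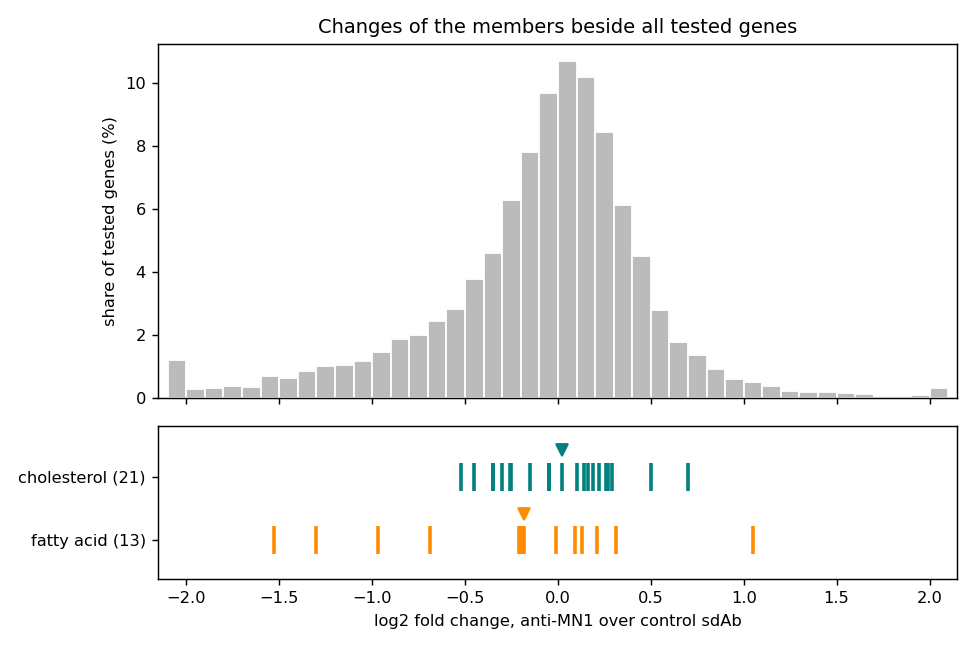
Top, share of the 17524 tested genes (%) in bins of log2 fold change, anti-MN1 over control sdAb, with larger changes gathered in the end bars. Below, each vertical mark is a member and each triangle a group median, at 0.02 for the 21 cholesterol genes and -0.18 for the 13 fatty acid genes, whose marks reach from -1.53 to 1.05.

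In fatty acid synthesis the enzymes moved little and in both directions while their regulator SREBF1 fell. Of the 5 genes of this step, SREBF1 included, 2 rose (40%), 2 fell (40%) and 1 passed in neither direction. Among all tested genes 23.2% rose and 20.9% fell. The median of the 5 genes was -0.18. FASN, the synthase that builds palmitate, had 701 and 657 CPM under anti-MN1 sdAb, against 594 and 580 CPM in controls. It rose by 0.21 ± 0.03 on the log2 scale, 1.16-fold, in edgeR's test (adjusted p = 4.97e-06). ACACA, the carboxylase that supplies malonyl-CoA, had 219 and 204 CPM under anti-MN1 sdAb and 242 and 236 CPM in controls. It fell by 0.18, and the call was lost without anti-MN1 replicate 2 (edgeR adjusted p = 0.0568). The successive enzymes ACACA and FASN thus differed in direction.

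ACLY, which makes cytosolic acetyl-CoA from citrate, rose by 0.09 (edgeR adjusted p = 0.0269). That call was lost without control replicate 2 (0.06, adjusted p = 0.26) and without anti-MN1 replicate 1 (0.137). ACSS2, which makes acetyl-CoA from acetate, had 16.5 and 15.5 CPM under anti-MN1 sdAb and 16.8 and 20.2 CPM in controls and passed in neither direction (edgeR adjusted p = 0.142).

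Of 5 desaturases and elongases, 2 rose (40%), 2 fell (40%) and 1 passed in neither direction, beside 23.2% and 20.9% of all tested genes. Their median was -0.01, and FADS2 had the largest change. FADS2, the delta-6 desaturase that starts the making of long polyunsaturated fatty acids, had 62.2 and 57.5 CPM under anti-MN1 sdAb, against 148 and 147 CPM in controls. Both anti-MN1 libraries lay far below both controls, and replicates were close, with means of 59.9 ± 3.35 CPM under anti-MN1 sdAb and 147 ± 0.72 CPM in controls (SD, n = 2 each). The log2 fold change was -1.30 ± 0.05 (edgeR adjusted p = 6.21e-19), and 5.76% of tested genes changed more. FADS1, the delta-5 desaturase whose gene lies beside FADS2 on chromosome 11 and overlaps it on the other strand, had 282 and 286 CPM under anti-MN1 sdAb and 288 and 282 CPM in controls.

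FADS1 levels overlapped between groups, with a log2 fold change of -0.01 ± 0.04. The ratio of FADS2 to FADS1 was 0.221 and 0.201 under anti-MN1 sdAb and 0.513 and 0.520 in controls, 0.408 times as high. FADS2 spans 61792980 to 61867354 and FADS1 61799625 to 61829318 of chromosome 11 on GRCh38, and 4.44% of FADS2 exon bases lie under exons of the other strand. FADS3, the third gene of the cluster, had 65.5 and 67.2 CPM under anti-MN1 sdAb and 64.5 and 74.5 CPM in controls, which overlap. Of the 3 genes of this cluster, FADS2 passed the test and FADS1 and FADS3 did not, though FADS1 was called lower with upper-quartile factors, at -0.09.

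SCD, the desaturase that makes oleate, had 563 and 574 CPM under anti-MN1 sdAb, against 666 and 642 CPM in controls. It fell by 0.20 ± 0.03 on the log2 scale in edgeR's test (adjusted p = 4.48e-06), and its ratio to FASN was 0.804 and 0.874 under anti-MN1 sdAb and 1.12 and 1.11 in controls. The elongase ELOVL6, which extends palmitate, had 59.2 and 53.5 CPM under anti-MN1 sdAb and 45.7 and 45.6 CPM in controls, a rise of 0.31 ± 0.07 (edgeR adjusted p = 0.000669). ELOVL5, which extends polyunsaturated chains, rose by 0.13, a call lost without anti-MN1 replicate 2 (edgeR adjusted p = 0.0766).

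The sterol efflux pumps fell together. ABCA1, which loads cholesterol on to apolipoprotein A1, had 3.84 and 3.68 CPM under anti-MN1 sdAb, against 6.89 and 7.82 CPM in controls. It was 1.96-fold lower, with a log2 fold change of -0.97 ± 0.20 (edgeR adjusted p = 0.000222). ABCG1, which loads mature lipoprotein particles, had 2.94 and 1.94 CPM under anti-MN1 sdAb, against 7.01 and 7.12 CPM in controls, 2.89-fold lower. Its log2 fold change of -1.53 ± 0.23 (edgeR adjusted p = 2.41e-06) was the largest of any member, and 3.68% of tested genes changed more. Both are scarce transcripts, from 30 to 46 counts (ABCG1) and 57 to 60 counts (ABCA1) in the anti-MN1 libraries, against 113 to 123 and 111 to 135 in controls.

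CPT1A, the outer-membrane carnitine transferase that admits long-chain fatty acids to mitochondrial oxidation, had 116 and 117 CPM under anti-MN1 sdAb, against 60.6 and 52.0 CPM in controls. The groups were far apart, with means of 116 ± 0.676 CPM under anti-MN1 sdAb and 56.3 ± 6.06 CPM in controls (SD, n = 2 each). The log2 fold change was 1.05 ± 0.06, 2.07-fold higher (edgeR adjusted p = 4.35e-15). It was the largest rise in the list, and 9.19% of tested genes changed more in either direction. Its tissue relatives CPT1B and CPT1C were low and overlapped between groups, but 66.4% of CPT1B exon bases lie in another gene on the same strand, where reads may be left uncounted.

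Further ratios within libraries show how pairs of like function moved. That of ABCA1 to ABCG1 was 1.3 and 1.9 under anti-MN1 sdAb and 0.982 and 1.1 in controls, with the anti-MN1 libraries far apart from each other. SQLE to FDFT1 was 0.706 and 0.775 under anti-MN1 sdAb and 0.793 and 0.801 in controls, and ACSS2 to ACLY was 0.0377 and 0.0362 against 0.0404 and 0.0512.

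**Figure D4:**
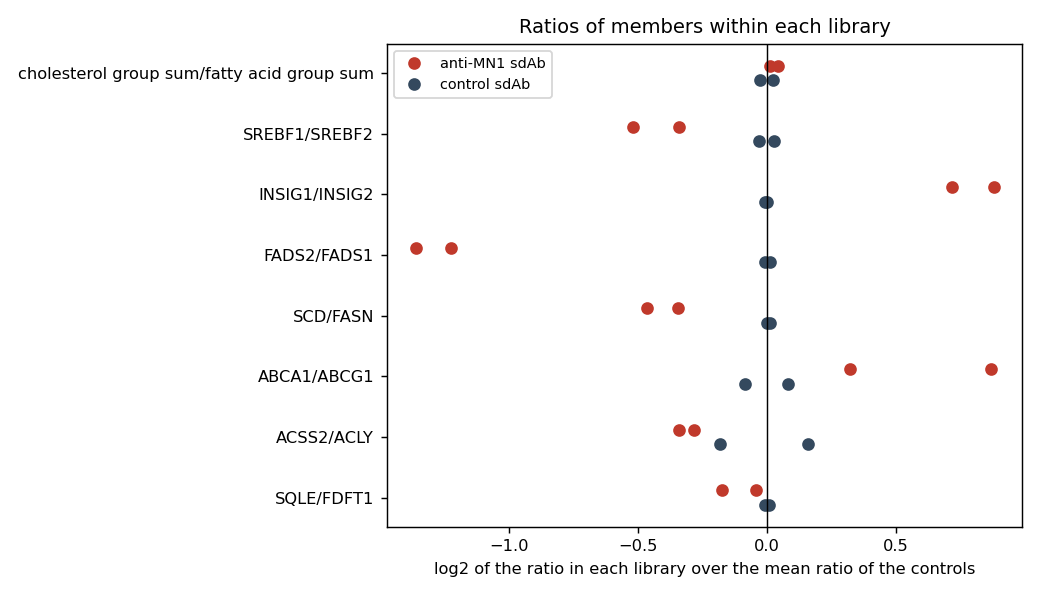
Each ratio in each library as the log2 of the ratio over the mean ratio of the controls (horizontal axis), with anti-MN1 points above control points for each ratio. FADS2/FADS1 lies farthest from 0, at 0.211 under anti-MN1 sdAb and 0.516 in controls on average, and the ratio of the cholesterol and fatty acid sums overlaps.

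Set per kilobase of exon, merged over all annotated transcripts of a gene, the order of levels was steady at the top. The expressed transcripts may be shorter than these merged exons, so ranks between genes are rough. SCD (106 CPM per kilobase under anti-MN1 sdAb, 122 in controls), ACLY (83.0 and 77.7), FASN (72.5 and 62.7), ELOVL5 (57.7 and 52.8) and HMGCS1 (45.5 and 45.0) held ranks 1 to 5 in both groups. ABCA1 was the lowest, at 0.331 CPM per kilobase under anti-MN1 sdAb and 0.648 in controls. CPT1A moved to rank 17 of 34 under anti-MN1 sdAb, against 23 in controls, SREBF1 to 22 against 16, and FADS2 to 26 against 21. Many neighbours in this order lie closer than their spread.

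Genes around the pathway were then taken from lists of its other parts. The shares of these lists stand beside 23.2% higher and 20.9% lower among all tested genes. Of 11 genes that retain, cleave or degrade SREBP, 3 rose (27.3%) and 2 fell (18.2%), near those shares, with a median of -0.03. MBTPS2, the Golgi protease that makes the second cut, had 64.9 and 66.9 CPM under anti-MN1 sdAb, against 40.8 and 41.2 CPM in controls. Its log2 fold change was 0.68 ± 0.07 (edgeR adjusted p = 8.43e-10). Of its exon bases 13.4% lie in other genes on the same strand, where reads may be left uncounted. Its partner MBTPS1, which makes the earlier cut, fell by 0.26. SCAP had 120 and 115 CPM under anti-MN1 sdAb and 120 and 121 CPM in controls and had a log2 fold change of -0.04 (edgeR adjusted p = 0.546). RNF139, a ubiquitin ligase of this system, fell by 0.34, and SAR1B, a GTPase of vesicle transport, rose by 0.30. PAQR3 also rose by 0.30, but 45.5% of its exon bases are overlapped on the other strand.

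Of 13 genes of the isoprenoid branch and other sterol enzymes, 4 rose (30.8%) and 1 fell (7.69%), with a median of 0.13. PGGT1B, a subunit of a protein prenyltransferase, rose by 0.39, NUS1, of dolichol synthesis, by 0.31 (with 14.1% of its exon windows found in other genes), and PDSS1, of ubiquinone side-chain synthesis, by 0.43. The PDSS1 call was lost without control replicate 1, where the log2 fold change was 0.28.

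Of 16 tested genes of sterol uptake, transport and storage, 6 rose (37.5%) and 2 fell (12.5%), with a median of 0.00. NPC1, which exports cholesterol from lysosomes, had 125 and 124 CPM under anti-MN1 sdAb, against 88.6 and 87.8 CPM in controls (log2 fold change 0.49 ± 0.05). NCEH1, a cholesteryl ester hydrolase, rose by 0.84, GRAMD1B, a carrier of plasma membrane cholesterol, by 0.72, and SOAT1, which esterifies cholesterol, by 0.44. The hydrolase and the esterifying enzyme act in opposite directions on cholesteryl esters, and both were higher.

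Of 9 tested LXR receptors, partners and targets, 2 rose (22.2%) and 4 fell (44.4%), with a median of -0.08. The receptor gene NR1H2, for LXR beta, had 92.5 and 96.1 CPM under anti-MN1 sdAb and 85.1 and 80.2 CPM in controls, a rise of 0.19 (edgeR adjusted p = 0.00455). RXRA, the partner receptor, also rose by 0.19 (edgeR adjusted p = 0.000665). With upper-quartile factors neither passed (adjusted p = 0.12 for NR1H2 and 0.063 for RXRA), and NR1H2 did not pass without control replicate 2 (0.0727). NR1H3, for LXR alpha, had a log2 fold change of 0.19 (edgeR adjusted p = 0.173). The called targets fell. APOE, an apolipoprotein, had 4.35 and 4.91 CPM under anti-MN1 sdAb, against 8.87 and 11.2 CPM in controls (log2 fold change -1.12 ± 0.18).

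MYLIP, a ubiquitin ligase of lipoprotein receptors, fell by 0.50, a call lost without control replicate 1 and with DESeq2, and LPCAT3, a phospholipid remodelling enzyme, by 0.27. The LPCAT3 call was lost without either control library, without anti-MN1 replicate 2 (-0.17), with no low-count filter and with DESeq2, and 65.6% of its exon bases are overlapped on the other strand. These lists were chosen with earlier results of these data in view, so the direction of the called targets is a description only.

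Of 17 tested other genes of fatty acid synthesis, 6 rose (35.3%) and 3 fell (17.6%), with a median of -0.02. MID1IP1, an activator of acetyl-CoA carboxylase, rose by 0.62, ME1, a source of cytosolic NADPH, rose by 0.42, ELOVL7, an elongase, fell by 0.60, and SCD5, a relative of SCD, fell by 0.38, a call lost without anti-MN1 replicate 2 and with DESeq2. Of 14 tested genes of acyl-CoA and glycerolipid synthesis, 4 rose (28.6%) and 1 fell (7.14%), with a median of 0.04. ACSL4, which activates polyunsaturated fatty acids, had 132 and 129 CPM under anti-MN1 sdAb, against 79.6 and 74.8 CPM in controls (log2 fold change 0.75 ± 0.05). AGPAT3, an acyltransferase, rose by 0.80 and GPAM, which starts glycerolipid synthesis, by 0.36, and LPIN1, a phosphatidate phosphatase, fell by 0.49.

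Of 18 tested genes of fatty acid oxidation and PPAR, 4 rose (22.2%) and 4 fell (22.2%), with a median of -0.05. Those shares are near the 23.2% and 20.9% of all tested genes. SLC25A20, the carnitine carrier of the next step, had 15.2 and 15.1 CPM under anti-MN1 sdAb, against 9.55 and 10.1 CPM in controls (log2 fold change 0.62 ± 0.13). ANGPTL4, a PPAR target that inhibits lipoprotein lipase, had 3.20 and 4.13 CPM under anti-MN1 sdAb, against 1.43 and 0.984 CPM in controls (1.60 ± 0.33). PDK4, a brake on glucose oxidation, rose by 0.49, but without anti-MN1 replicate 2 its log2 fold change was 0.24 and the call was lost, as it was without control replicate 1 and with DESeq2. ACADL, a long-chain dehydrogenase, fell by 0.84 at levels under 5 CPM, a call lost without control replicate 2, without anti-MN1 replicate 1 and with DESeq2. PPARA, the receptor of the PPAR family tied to oxidation, fell by 0.36, with 20.7 and 23.8 CPM under anti-MN1 sdAb and 29.1 and 28.1 CPM in controls. Its call was lost without anti-MN1 replicate 1 (edgeR adjusted p = 0.075).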

How the data were processed

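RNA-seq counts per gene were deposited by the authors as whole numbers without normalization, for 2 anti-MN1 sdAb and 2 control sdAb libraries of U2OS cells. Bowtie2, HTSeq and the build hg38 (GRCh38) are named per the submitters' processing notes; neither versions nor annotation nor strandedness is stated there. All 58676 identifiers were found in GENCODE release 29, from which symbols and coordinates come. Columns were assigned to groups by their names and the labels.

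Genes passing filterByExpr (minimum count 10) were scaled by TMM and tested with edgeR 4.0.16 (quasi-likelihood, 2-sided, limma 3.58.1, R 4.3.3), with Benjamini-Hochberg adjustment over all 17524 tested genes at 0.05. CPM values use TMM-scaled library sizes; 3 counts correspond to 0.192 and 0.194 CPM in the anti-MN1 libraries and 0.186 and 0.174 CPM in controls, which covers counting error only. Scripts were tested on simulated data. Alternatives were other scalings, filters, DESeq2 1.42.0, limma-voom, a test against a 1.5-fold change, a replicate block and leaving out each library.

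The members and lists were chosen with earlier results of these data known. By rule, library values are given for the 4 regulators and the 14 called members with the largest changes, and those of further members (such as HMGCS1, PMVK, SQLE, CYP51A1, FASN, ACACA, ACSS2, SCD and FADS1) were added after their values were seen; up to 4 called genes of each wider list are named. Some genes of those lists are counted but not reported here by name. Genes outside that rule (FADS3, CPT1B, CPT1C, PPARA, SCAP, NR1H2, NR1H3, RXRA, MBTPS1) were named after their values were seen. The transcriptome windows searched for shared sequence were 50 bases long.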

Additional observations from a re-analysis of the deposited data

How the results depend on the processing

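Of the 34 members, 15 kept their call and direction (6 higher, 9 lower) under each of the 14 alternatives other than the test against a 1.5-fold change, except that ABCG1 fell outside the filter at 5 CPM. How many of all tested genes kept theirs was not counted, so the 15 have no background to be read against. The 1.5-fold test called 1 member higher and 2 lower, and 343 and 748 of all genes. Upper-quartile factors gave 6 members higher and 18 lower, and total counts alone 7 and 18. Among all genes those scalings gave 2988 and 3101 higher and 4837 and 4817 lower, and moved the median of all genes by -0.09 and -0.08. DESeq2 gave 8 and 11 members and 2971 and 2338 of all genes, and MVK, PMVK, TM7SF2, NSDHL, INSIG2, ACLY and ELOVL5 lost their calls. The filter at 5 CPM gave 8 and 14 members, and 3200 and 3189 of the 11747 genes that it kept. The cholesterol median was -0.07 with upper-quartile factors, -0.06 with total counts, 0.03 with no filter and -0.04 with the 5 CPM filter. The fatty acid median was -0.26 with both scalings. HMGCS1 reversed to -0.07, -0.06 and -0.04 with upper-quartile factors, total counts and the 5 CPM filter, and ran from -0.01 to 0.05 with a library left out. FADS1 reversed to 0.01 with no filter and ran from -0.02 to 0.01 with a library left out. The cause was not tested for any of these.

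Leaving out each library in turn gave 10 to 11 members higher and 10 to 12 lower, 3340 to 3649 genes higher and 2651 to 3024 lower, a cholesterol median of -0.01 to 0.05 and a fatty acid median of -0.18 to -0.07. With the replicate number as a block, 12 members rose and 14 fell, no member call changed, and 4145 genes rose and 3742 fell. Same-numbered libraries did not deviate together (r = -0.00303), so the numbers were not used as pairs. A robust estimate of the spread, chosen after seeing the data, gave 12 and 14 members. Depth limits the scarce members ABCA1, ABCG1 and TM7SF2.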
